A study of Mus musculus with 7 samples.

Results

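The nuclear-encoded subunits of the mitochondrial respiratory chain and of the ATP synthase were followed, complex by complex, in fibroblasts that overexpress Acid1. Members were the array probes whose single annotated gene symbol names a subunit of NADH dehydrogenase (complex I), succinate dehydrogenase (complex II), the cytochrome bc1 complex (complex III), cytochrome c oxidase (complex IV) or the ATP synthase (complex V). There were 104 such probes for 74 genes among the 20355 probes of the array. Of these, 71 probes for 56 genes had at least 3 values at 3 h and 2 at 10 h and were tested, as were 11559 probes in all. They comprised 28 probes for 24 genes of complex I, 3 for 3 of complex II, 7 for 6 of complex III, 16 for 11 of complex IV and 17 for 12 of complex V. The other 33 probes had too few values, 31 of them at 3 h and 10 at 10 h, and left 18 genes without a tested probe (Ndufa6, Ndufa9, Ndufab1, Ndufb2, Ndufb5, Ndufc1, Ndufc2, Sdhb, Uqcr11, Uqcrh, Cox6a1, Cox6a2, Cox7a2, Cox7c, Cox8b, Atp5e, Atp5h and Atp5k).

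The cells were NIH3T3, an established mouse embryonic fibroblast line, overexpressing Acid1, sampled 3 h or 10 h after a treatment that the labels do not describe. Each of the 7 arrays carried RNA of the treated cells in one dye and of non-treated fibroblasts in the other. At 3 h there were 4 arrays, with the treated sample in Cy5 on replicates 1 and 2 and in Cy3 on replicates 3 and 4. At 10 h there were 3, with Cy5 on replicates 1 and 2 and Cy3 on replicate 3. The labels do not say how Acid1 was expressed, whether the non-treated cells carried it too, or whether each array had its own culture. The p-values below thus measure the spread between arrays, which may be technical. The labels' protocols speak of organs and control animals, which differs from the fibroblasts of the source names. Acid1 itself was not analysed here.

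Values are log2 ratios on which 0 is equality and 1 a doubling, read as treated over non-treated. That direction is an assumption and is not stated. Its basis is that the constant shared by the values of an array, once turned to Cy5 over Cy3, had the same sign on all 3 arrays at 10 h (-0.556, -0.4 and -0.632), where the deposited values have the third at 0.632. At 3 h the constants were 0.45, 0.186, -0.103 and 0.52 as deposited and 0.45, 0.186, 0.103 and -0.52 once turned. Over all probes, as deposited, replicate 3 at 10 h correlated at -0.076 and -0.119 with replicates 1 and 2, which had 0.086 between them. At 3 h, correlations between arrays of opposite dye ran from 0.076 to 0.107. These values did not settle the direction. Main results are also given with the table read as Cy5 over Cy3, which reverses the sign of every array with the treated sample in Cy3. Most values of single probes are given in the first reading only, and the direction bears on them too. A ratio holds no level, so subunits cannot be ranked by abundance, and the fibroblast identity of the cells could not be checked from marker levels. In bulk RNA, fewer cells with a transcript and less of it per cell cannot be told apart. Between 13262 and 15157 spots were measured per array at 3 h and between 16395 and 17766 at 10 h, and the number of arrays limits the precision of every value.

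The respiratory chain passes electrons from NADH, through complex I, or from succinate, through complex II, to ubiquinone, then through complex III and cytochrome c to complex IV, which reduces oxygen. Complexes I, III and IV pump protons across the inner membrane, and the ATP synthase uses the return flow to make ATP. Complexes I, III and V hold core subunits that carry the catalytic or electron-transfer work, surrounded by smaller accessory, stalk or membrane subunits. In complex IV the catalytic core is encoded by mitochondrial DNA, so all members from that complex are surrounding subunits. Cultured fibroblasts draw much of their ATP from glycolysis but keep a working chain.

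At 10 h many small subunits of complexes I, IV and V lay slightly above 0 on every array, while core subunits and complexes II and III did not, apart from 1 probe for Uqcrq. Of 65 member probes with 3 values at 10 h, 34 (52.3%) were above 0 on all 3 arrays, against 15.6% of all 9743 such probes. Of those 34, 13 belonged to complex I, 1 to complex III, 9 to complex IV and 11 to complex V, and 0 to complex II. The mean at 10 h was above 0 for 53 of 71 member probes (74.6%, against 47.6% of all probes). Below 0 on all 3 arrays were 5 probes (7.69%, against 14.3%), for Cyc1, Uqcrc1, Uqcrfs1, Sdhc and 1 of the probes for Cox7a1. Member probes also had a smaller SD at 10 h (median 0.171, against 0.358), whose part in these shares was not tested. At 3 h the shares on 1 side of 0 were near those of the array as a whole. Of 58 probes with 4 values, 9 (15.5%) were below 0 on all 4 arrays, against 14.6% of all such probes, and 1, for Ndufs3, was above 0 on all 4, against 3.86%. The mean at 3 h was above 0 for 21 of 71 (29.6%, against 38.9%).

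No member passed the test at either time or in the difference between times, and neither did any other probe. In limma with Benjamini-Hochberg adjustment over all 11559 probes and a threshold of 0.05, 0 probes were called at 3 h, 0 at 10 h and 0 in the difference (0.0% of probes each), and the smallest adjusted p was 0.201, 0.988 and 0.507. At an unadjusted limma p under 0.05 there were 1577, 448 and 938 probes. Among the members the smallest adjusted p was 0.245 at 3 h, for Sdhd, 1.0 at 10 h and 0.569 in the difference. At an unadjusted limma p under 0.05, 9 member probes lay below 0 at 3 h (12.7%, against 10.5% of all probes) and 0 above it (against 3.13%). At 10 h, 1 lay above 0, for Cox8a (1.41%, against 1.56%), and 0 below (against 2.32%). In the difference 11 were higher at 10 h (15.5%, against 5.37%) and 0 lower (against 2.74%). The descriptions that follow are therefore of log2 ratios and their spread.

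**Figure D1:**
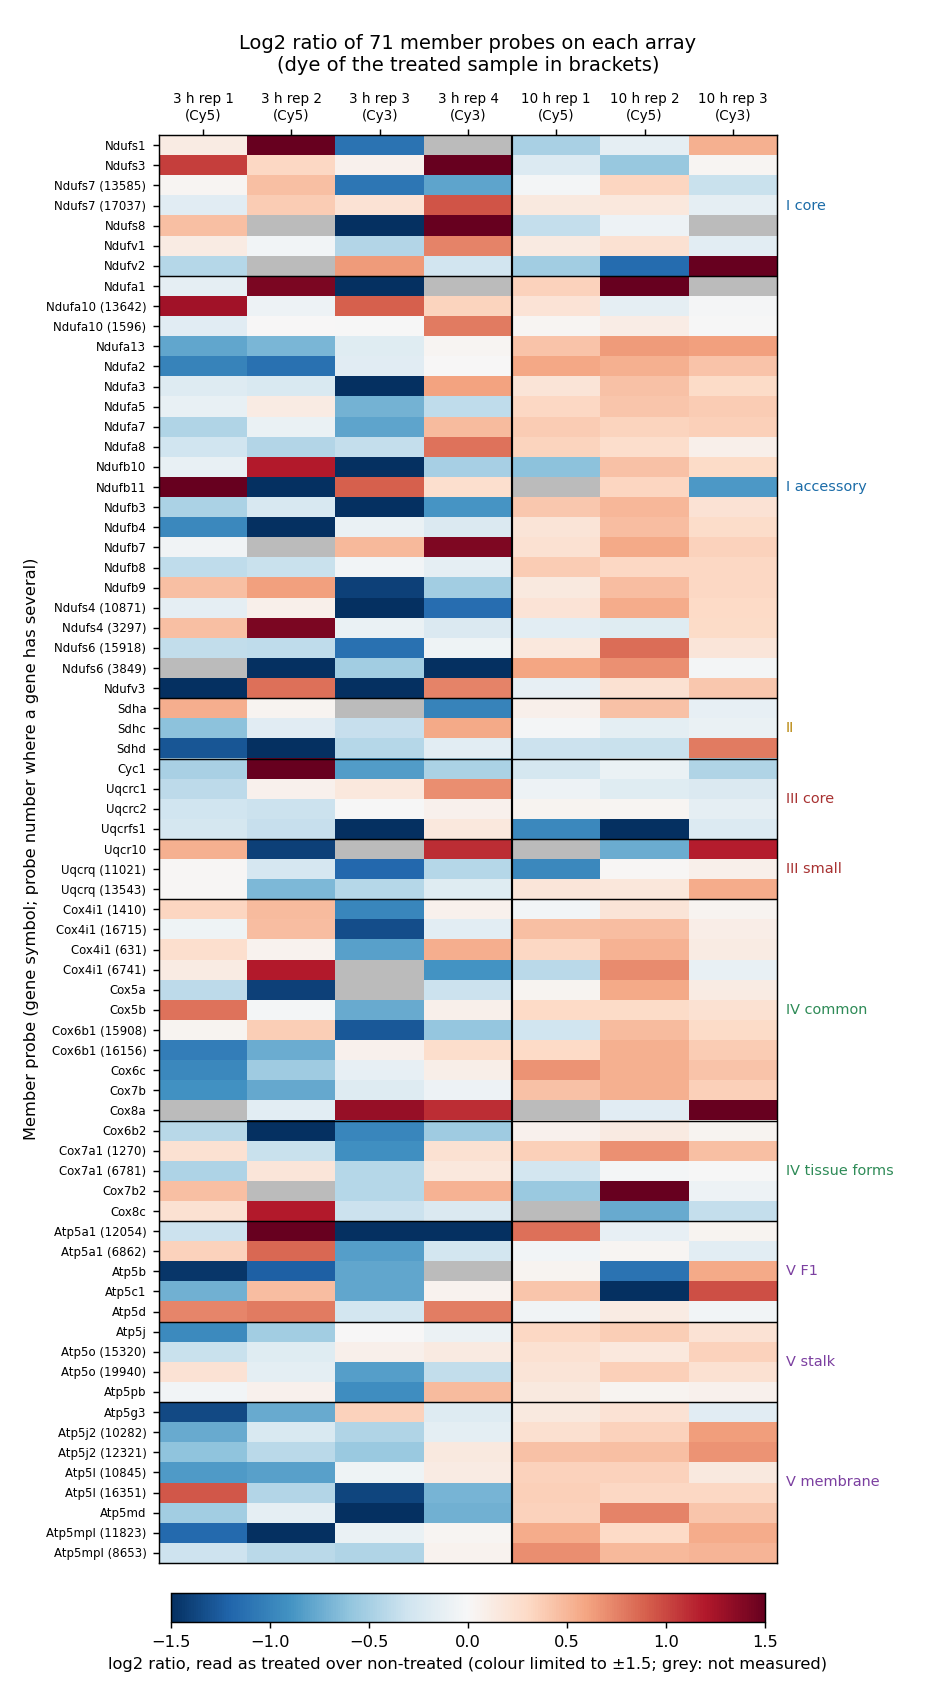
Log2 ratio of each of the 71 tested member probes (rows, grouped by complex and role) on each of the 7 arrays (columns, with the dye of the treated sample), in colour from -1.5 to 1.5, with grey for no value. At 10 h the accessory subunits of complex I, the common subunits of complex IV and the stalk and membrane subunits of complex V are mostly pale red on all 3 arrays, while at 3 h both colours occur and are stronger.

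The values at 10 h were small and close to each other, and those at 3 h were wide. The median SD of a member probe was 0.171 at 10 h and 0.607 at 3 h, against 0.358 and 0.767 over all probes tested, and 39 member probes (54.9%) had an SD under 0.2 at 10 h, against 29.4% of all probes. A share of the 3 h values sat at ratios of small whole numbers. Between 21.7% and 34.3% of the members' values on an array at 3 h equalled, within 0.0016, the log2 of 1 whole number over another, both at most 8, plus the array's constant, against 45.8% to 55.6% of all tested probes, and 1.4% to 6.0% at 10 h, against 8.2% to 9.5%. Such values recur between genes: Ndufb11, Ndufs6 (probe 3849) and Sdhd all had -1.81 on replicate 2 at 3 h. Their part in the wider spread at 3 h was not tested.

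Set against the median of all tested probes on the same array, the members' median was -0.083, -0.084, -0.13 and 0.099 on the 4 arrays at 3 h and 0.19, 0.28 and 0.25 on the 3 arrays at 10 h. The mean over arrays was -0.049 ± 0.10 (SD, n = 4) at 3 h and 0.24 ± 0.049 (SD, n = 3), a ratio of 1.18, at 10 h. Complex V stood at -0.19 ± 0.18 and 0.31 ± 0.033, complex I at -0.014 ± 0.10 and 0.27 ± 0.066, and complex IV at 0.016 ± 0.19 and 0.27 ± 0.18 (n = 4 and 3 each). These 3 complexes were above the array's median on all 3 arrays at 10 h and did not differ from each other beyond their spread. Complex III stood at -0.14 ± 0.20 and -0.13 ± 0.035, and complex II at -0.19 ± 0.21 and -0.086 ± 0.074, below the array's median on all 3 arrays at 10 h. Replicate 3 at 10 h, read as Cy5 over Cy3, stood at -0.317, 0.066, 0.101, -0.152 and -0.341 for complexes I, II, III, IV and V. At 3 h the arrays of complexes I, III, IV and V lay on both sides of 0, and complex II was below it throughout, with -0.51 on replicate 1.

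**Figure D2:**
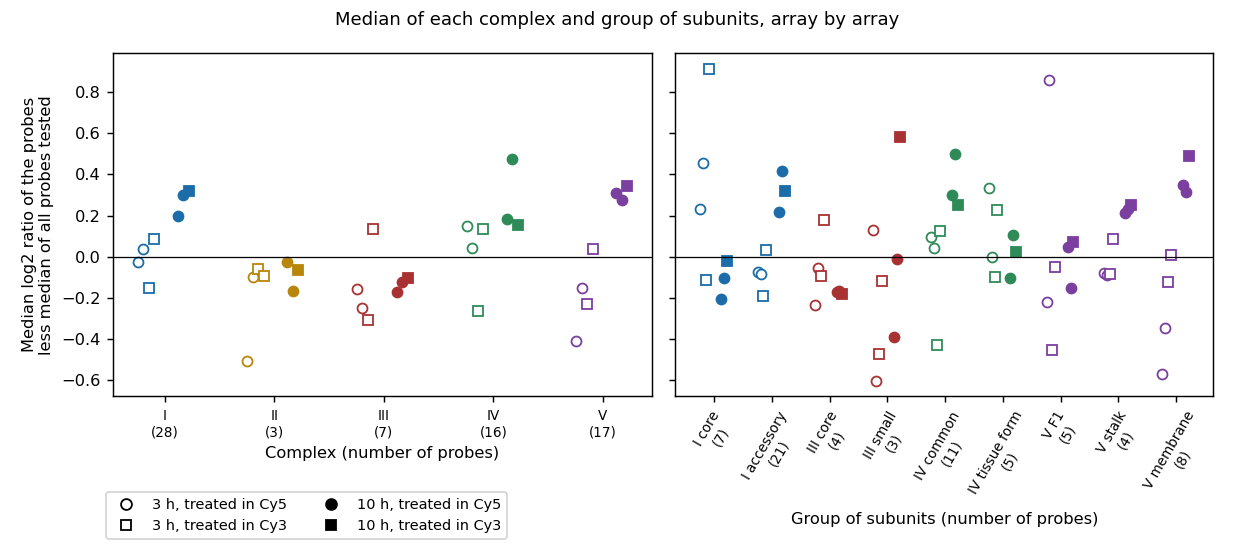
Median log2 ratio of each complex (left) and each group of subunits (right) less the median of all tested probes, 1 point per array, open for 3 h, filled for 10 h, round for arrays with treated cells in Cy5 and square for those in Cy3. The filled points of complexes I, IV and V lie above 0 and those of complexes II and III below it, and within complexes I and V the core and F1 groups lie near or below 0 while the accessory, stalk and membrane groups lie above it.

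The median of fitted values, from the model with a mean per time and a dye term, had the same signs at 10 h except in complex II. Less the median of all probes it was 0.22 for all members, 0.21 for complex I, 0.017 for complex II, -0.077 for complex III, 0.26 for complex IV and 0.22 for complex V. Without replicate 3 at 10 h the fitted value of complex III was 0.096 and that of complex II 0.24. The array medians of complex III were below 0 on replicates 1 and 2 too, at -0.169 and -0.123. Replicate 3 was the only 10 h array with the treated sample in Cy3, so without it the dye term came from the 3 h arrays. With all arrays and no dye term the value of complex III was -0.139. At 3 h the fitted medians were -0.12, -0.098, -0.13, 0.009, -0.018 and -0.24 in the same order, and without replicate 3 at 3 h those of all members and of complexes I and IV were 0.040, 0.18 and 0.098. The difference between times was 0.32 for all members, 0.32, 0.12, -0.29, 0.31 and 0.50 by complex. Without replicate 3 at 3 h it was 0.16 for all members, 0.11 for complex I and 0.14 for complex IV, and without replicate 3 at 10 h it was 0.19 for all members and 0.084 for complex IV. For complex III it was -0.054, -0.076 and -0.079 without replicate 1 or 2 at 3 h or replicate 2 at 10 h. The 3 h value of complex V was -0.12 without replicate 1 and -0.13 without replicate 3, and the 10 h value of complex I was 0.33 without replicate 1. For complex II the 3 h value was -0.32 without replicate 1 at 3 h and -0.045 without replicate 2, and the difference 0.35 and 0.048. The 3 h value of complex IV, next to 0, was -0.17 without replicate 2 and -0.13 without replicate 4.

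In complex I the accessory subunits lay mostly above 0 at 10 h and the core around or below it. Of 19 accessory probes with 3 values, 13 were above 0 on all 3 arrays, and of 6 core probes 0 were, against 15.6% of all probes. The counts turned round when read as Cy5 over Cy3, to 2 of 19 (10.5%) and 2 of 6 (33.3%), against 15.5%. The accessory group, 21 probes for 18 genes, had a median relative to its array of -0.079 ± 0.092 (SD, n = 4) at 3 h and 0.32 ± 0.099 (SD, n = 3), a ratio of 1.25, at 10 h. The core group, 7 probes for 6 genes, had 0.37 ± 0.43 and -0.11 ± 0.093 over the same arrays. The groups were drawn from textbook roles after the values had been seen, so their difference was not tested.

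Ndufa13, an accessory subunit of the membrane arm also known in interferon-induced cell death, gave -0.78, -0.69, -0.18 and 0.034 at 3 h and 0.42, 0.64 and 0.61 at 10 h, listed in the order of replicates as are all such values below. Every value at 10 h was above every value at 3 h, and the means were -0.403 ± 0.395 (SD, n = 4) and 0.56 ± 0.12 (SD, n = 3), with a fitted difference of 1.03 (SE 0.36, limma adjusted p = 0.581). Ndufa2, a small accessory subunit on the matrix side, gave -1.004, -1.12, -0.17 and 0.003 at 3 h and 0.58, 0.54 and 0.42 at 10 h. Its groups did not overlap either, and its 10 h values lay within a narrow band. The fitted difference of Ndufa2 was 1.18 (SE 0.4, limma adjusted p = 0.577). When read as Cy5 over Cy3, the fitted differences were 0.489 for Ndufa13 and 0.77 for Ndufa2.

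Ndufs6 is a zinc-binding accessory subunit added late in the assembly of the NADH-oxidising arm. Its probe 3849 gave -1.81, -0.52 and -1.802 (no value on replicate 1) at 3 h and 0.59, 0.68 and -0.028 at 10 h, with a fitted difference of 1.79 (SE 0.58, limma adjusted p = 0.577), which was 0.66 when read as Cy5 over Cy3. The second probe for Ndufs6 had means of -0.48 ± 0.45 (SD, n = 4) and 0.39 ± 0.38 (SD, n = 3), so the means of both probes were below 0 at 3 h and above it at 10 h. For both probes all values at 10 h were above all values at 3 h.

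Ndufb3, Ndufb4 and Ndufb8 belong to the membrane arm, where protons are pumped. The probe for Ndufb3 gave -0.47, -0.25, -1.74 and -0.89 at 3 h and 0.404, 0.49 and 0.22 at 10 h, negative on 4 of 4 and positive on 3 of 3 arrays. For Ndufb4 the values were -0.96, -1.59, -0.103 and -0.22 at 3 h and 0.197, 0.46 and 0.27 at 10 h, and for Ndufb8 they were -0.39, -0.34, -0.043 and -0.14 at 3 h and 0.38, 0.31 and 0.305 at 10 h. Ndufb8 was the steadiest of these, with means of -0.23 ± 0.16 (SD, n = 4) and 0.33 ± 0.041 (SD, n = 3). None of the differences passed, at limma adjusted p = 0.581, 0.581 and 0.671. The fitted differences were -0.128, 0.791 and 0.265 in the same order when read as Cy5 over Cy3.

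Other accessory probes of complex I above 0 on all 3 arrays at 10 h had means there of 0.31 ± 0.12 (SD, n = 3) for Ndufa3, 0.36 ± 0.055 (SD, n = 3) for Ndufa5, 0.36 ± 0.027 (SD, n = 3) for Ndufa7, 0.23 ± 0.14 (SD, n = 3) for Ndufa8, 0.38 ± 0.17 (SD, n = 3) for Ndufb7 and 0.31 ± 0.16 (SD, n = 3) for Ndufb9. One of the probes for Ndufs4, an accessory subunit lost in some forms of Leigh syndrome, had 0.35 ± 0.18 (SD, n = 3), but the other had -0.013 ± 0.27 (SD, n = 3), and at 3 h they were at -0.81 ± 0.98 (SD, n = 4) and 0.38 ± 0.74 (SD, n = 4). The probes for Ndufs4 thus disagreed in sign at both times. Ndufa10 was near 0 at 10 h on both of its probes, at 0.016 ± 0.17 (SD, n = 3) and 0.046 ± 0.060 (SD, n = 3). Ndufv3 had 0.17 ± 0.27 (SD, n = 3) and Ndufb10 0.042 ± 0.57 (SD, n = 3), each with 1 array below 0, and Ndufb11 had -0.27 ± 0.83 (SD, n = 2). Ndufa1, with 1.099 ± 1.06 (SD, n = 2), had values of 0.35 and 1.85.

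The core of complex I takes electrons from NADH and passes them along iron-sulfur clusters to ubiquinone. Ndufv1, which binds NADH and the flavin, gave 0.13, -0.039, -0.44 and 0.75 at 3 h and 0.14, 0.23 and -0.16 at 10 h. Ndufv2, its iron-sulfur partner, gave -0.43, 0.63 and -0.29 (no value on replicate 2) at 3 h and -0.52, -1.16 and 1.502 at 10 h. These values lay on both sides of 0 at both times, closely around it for Ndufv1 at 10 h and widely for Ndufv2, whose Cy3 array stood apart from the Cy5 arrays.

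Ndufs1, the large iron-sulfur subunit of the NADH-oxidising arm, gave 0.13, 1.77 and -1.103 (no value on replicate 4) at 3 h and -0.49, -0.13 and 0.53 at 10 h. Ndufs3, a core subunit of the arm that leads to ubiquinone, gave 1.03, 0.31, 0.067 and 1.52 at 3 h and -0.21, -0.56 and 0.030 at 10 h. Ndufs3 was the only member above 0 on 4 of 4 arrays at 3 h, and every 10 h value was below every 3 h value, with a fitted difference of -0.94 (SE 0.49, limma adjusted p = 0.642). Ndufs8, a carrier of iron-sulfur clusters, gave 0.45, -1.69 and 1.52 (no value on replicate 2) at 3 h and -0.36 and -0.078 (no value on replicate 3) at 10 h. Ndufs7, which holds the last cluster before ubiquinone, had 2 probes, with 0.035, 0.45, -1.09 and -0.79 at 3 h and -0.028, 0.33 and -0.33 at 10 h on one and -0.17, 0.38, 0.22 and 0.95 at 3 h and 0.14, 0.16 and -0.13 at 10 h on the other. The means of these probes had opposite signs at both times, with -0.35 ± 0.71 (SD, n = 4) and 0.34 ± 0.46 (SD, n = 4) at 3 h.

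Complex II, the only complex with no mitochondrial gene, links succinate oxidation in the tricarboxylic acid cycle to ubiquinone. Sdha, its flavoprotein, gave 0.55, 0.041 and -0.998 (no value on replicate 3) at 3 h and 0.074, 0.44 and -0.12 at 10 h. Sdhc, one of the membrane anchors, gave -0.61, -0.17, -0.35 and 0.57 at 3 h and -0.025, -0.14 and -0.094 at 10 h, below 0 on all 3 arrays at 10 h by at most 0.14. Sdhd, the other anchor, gave -1.29, -1.81, -0.42 and -0.16 at 3 h and -0.32, -0.34 and 0.77 at 10 h. Sdhd was below 0 on 4 of 4 arrays at 3 h, at -0.92 ± 0.77 (SD, n = 4), and had the smallest adjusted p of all members there, with a fitted value of -0.92 (SE 0.23, limma adjusted p = 0.245) and a fitted difference between times of 1.16 (SE 0.36, limma adjusted p = 0.569). Its Cy3 array at 10 h, at 0.77, stood above the Cy5 arrays. Sdhb, the iron-sulfur subunit, had too few values.

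Complex III was at or below 0 at 10 h in its core and mixed in its small subunits. Uqcrfs1, the Rieske iron-sulfur protein, gave -0.26, -0.35, -2.27 and 0.16 at 3 h and -0.97, -2.01 and -0.204 at 10 h, with a 10 h mean of -1.06 ± 0.91 (SD, n = 3), and its fitted value at 10 h was -0.68 when read as Cy5 over Cy3. Cyc1, the haem protein that hands electrons to cytochrome c, gave -0.48, 2.19, -0.84 and -0.48 at 3 h and -0.26, -0.096 and -0.45 at 10 h. Replicate 2 stood far above the other 3 h values of Cyc1, and without it the 3 h values lay between -0.84 and -0.48. The structural core proteins were closer to 0, with -0.39, 0.065, 0.16 and 0.696 at 3 h and -0.074, -0.18 and -0.21 at 10 h for Uqcrc1 and -0.299, -0.33, -0.005 and 0.070 at 3 h and 0.037, 0.032 and -0.13 at 10 h for Uqcrc2. On each 10 h array the core group of 4 probes stood at -0.17, -0.16 and -0.18 relative to the array's median.

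Uqcrq, a small subunit of the complex, was measured by 2 probes that did not match at 10 h. Probe 11021 gave 0.014, -0.25, -1.17 and -0.43 at 3 h and -0.97, 0.018 and 0.076 at 10 h, and probe 13543 gave 0.023, -0.68, -0.42 and -0.18 at 3 h and 0.19, 0.17 and 0.56 at 10 h. The second was above 0 on all 3 arrays at 10 h and above all of its 3 h values, with a fitted difference of 0.65 (SE 0.38, limma adjusted p = 0.668). Uqcr10, another small subunit, gave 0.53, -1.4 and 1.104 (no value on replicate 3) at 3 h and -0.74 and 1.18 (no value on replicate 1) at 10 h, on both sides of 0 at each time.

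The complex IV subunits found in most tissues had a 10 h mean above 0 on 11 of 11 probes, against 47.6% of all probes, and 7 of the 10 with 3 values were above 0 on all 3 arrays, against 15.6%. In the Cy5 over Cy3 reading 0 of the 10 were, against 15.5%. Read as treated over non-treated, the group stood at 0.35 ± 0.13 (SD, n = 3) relative to the array's median, a ratio of 1.28, against -0.040 ± 0.26 (SD, n = 4) at 3 h. Cox6c gave -0.97, -0.53, -0.12 and 0.092 at 3 h and 0.67, 0.53 and 0.43 at 10 h, and its groups did not overlap, with a fitted difference of 0.99 (SE 0.39, limma adjusted p = 0.591). Cox7b gave -0.91, -0.76, -0.199 and -0.075 at 3 h and 0.43, 0.53 and 0.35 at 10 h, negative on every array at 3 h and positive on every array at 10 h, with 0.99 (SE 0.38, limma adjusted p = 0.581). Both encode small membrane-spanning subunits that lie around the catalytic core. Their fitted differences were 0.635 and 0.595 when read as Cy5 over Cy3.

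Cox5a and Cox5b sit beside the core on the matrix side, and Cox5b binds zinc. Cox5a gave -0.397, -1.4 and -0.33 (no value on replicate 3) at 3 h and 0.044, 0.57 and 0.12 at 10 h, and Cox5b gave 0.81, -0.033, -0.75 and 0.077 at 3 h and 0.297, 0.29 and 0.22 at 10 h. Cox5b was steady at 10 h and wide at 3 h. Cox6b1, which faces the intermembrane space where cytochrome c docks, gave -1.04, -0.74, 0.059 and 0.27 at 3 h and 0.303, 0.53 and 0.38 at 10 h on probe 16156 and 0.043, 0.37, -1.27 and -0.58 at 3 h and -0.301, 0.48 and 0.29 at 10 h on probe 15908. The groups of probe 16156 did not overlap, and those of probe 15908 did.

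Cox4i1, the common form of the subunit through which ATP lowers the activity of the complex, was measured by 4 probes. Probe 16715 gave -0.064, 0.46, -1.33 and -0.16 at 3 h and 0.46, 0.46 and 0.103 at 10 h, and probe 631 gave 0.25, 0.052, -0.81 and 0.54 at 3 h and 0.32, 0.53 and 0.13 at 10 h. Probe 1410 gave 0.33, 0.47, -0.98 and 0.062 at 3 h and -0.037, 0.19 and 0.043 at 10 h, and probe 6741 gave 0.13, 1.19 and -0.896 (no value on replicate 3) at 3 h and -0.41, 0.71 and -0.12 at 10 h. The mean at 10 h was above 0 on all 4 probes, from 0.063 to 0.34, while at 3 h it ran from -0.27 to 0.14 with 2 probes on each side. Cox8a, the common form of the smallest subunit, gave -0.16, 1.31 and 1.104 (no value on replicate 1) at 3 h and -0.17 and 3.197 (no value on replicate 1) at 10 h. Its 10 h mean of 1.51 ± 2.38 (SD, n = 2) rested on the value of 3.20 on the Cy3 array, so that its fitted value at 10 h was -1.68 when read as Cy5 over Cy3.

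Tissue-restricted forms of complex IV subunits stood near 0 as a group, with a median relative to the array of 0.12 ± 0.20 (SD, n = 4) at 3 h and 0.009 ± 0.11 (SD, n = 3) at 10 h. Cox7a1, the heart and skeletal muscle form, had 2 probes that disagreed at 10 h, with 0.23, -0.34, -0.92 and 0.23 at 3 h and 0.35, 0.69 and 0.45 at 10 h on probe 1270 and -0.46, 0.19, -0.42 and 0.16 at 3 h and -0.27, -0.034 and -0.003 at 10 h on probe 6781. Cox6b2, the testis form, gave -0.41, -3.404, -0.98 and -0.54 at 3 h and 0.066, 0.13 and 0.040 at 10 h, with no overlap between times but values at 10 h within 0.13 of 0. The testis form Cox8c had -0.55 ± 0.28 (SD, n = 2) at 10 h, below all of its 3 h values, and Cox7b2 had 0.32 ± 1.13 (SD, n = 3). The muscle forms Cox6a2 and Cox8b and the common forms Cox6a1 and Cox7a2 had too few values.

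In the ATP synthase the F1 head lay around 0 at 10 h and the stalk and membrane subunits above it. Of the 12 stalk and membrane probes, 11 were above 0 on all 3 arrays at 10 h, and of the 5 F1 probes 0 were, against 15.6% of all probes. Read as Cy5 over Cy3, 1 of the 12, for Atp5g3, and 0 of the 5 were, and the membrane group stood at 0.058 ± 0.47 (SD, n = 3) relative to the array's median at 10 h. Read as treated over non-treated, and relative to the array's median, the membrane group stood at -0.26 ± 0.25 (SD, n = 4) and 0.39 ± 0.092 (SD, n = 3), a ratio of 1.31 at 10 h, the stalk group at -0.041 ± 0.086 and 0.23 ± 0.021, and the F1 group at 0.034 ± 0.58 and -0.010 ± 0.12.

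The membrane part of the synthase lets protons through and holds pairs of the enzyme together. Atp5mpl, a small subunit bound to it, gave -1.16, -1.99, -0.103 and 0.034 at 3 h and 0.56, 0.302 and 0.56 at 10 h on probe 11823 and -0.31, -0.404, -0.45 and 0.049 at 3 h and 0.69, 0.49 and 0.51 at 10 h on probe 8653, and its groups did not overlap on either probe. The fitted differences of Atp5mpl were 1.44 (SE 0.46, limma adjusted p = 0.569) and 0.85 (SE 0.36, limma adjusted p = 0.613). Atp5md, another small subunit there, gave -0.52, -0.14, -1.54 and -0.72 at 3 h and 0.34, 0.75 and 0.41 at 10 h, with a fitted difference of 1.14 (SE 0.41, limma adjusted p = 0.581). Atp5j2, subunit f, gave -0.6, -0.402, -0.56 and 0.14 at 3 h and 0.44, 0.45 and 0.68 at 10 h on probe 12321, with 0.92 (SE 0.37, limma adjusted p = 0.596), and its other probe had means of -0.395 ± 0.27 (SD, n = 4) and 0.402 ± 0.2 (SD, n = 3). When read as Cy5 over Cy3, the fitted differences were 0.965 and 0.283 for the probes of Atp5mpl, -0.093 for Atp5md and 0.212 for probe 12321 of Atp5j2.

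Atp5l, subunit g, which also takes part in dimers, had 10 h means of 0.28 ± 0.11 (SD, n = 3) and 0.33 ± 0.024 (SD, n = 3) on its probes. Atp5g3, one of the genes for the proton-carrying ring subunit, had 0.065 ± 0.21 (SD, n = 3), with the Cy3 array below 0. In the peripheral stalk, which holds the head still, Atp5o had 0.24 ± 0.095 (SD, n = 3) and 0.26 ± 0.085 (SD, n = 3), Atp5j 0.302 ± 0.075 (SD, n = 3) and Atp5pb 0.085 ± 0.053 (SD, n = 3). All 4 stalk probes were above 0 on all 3 arrays, with SDs of 0.095 or less.

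The F1 head makes ATP. Atp5b, its catalytic beta subunit, gave -1.46, -1.23 and -0.78 (no value on replicate 4) at 3 h and 0.046, -1.103 and 0.57 at 10 h, and Atp5a1, the alpha subunit, gave -0.33, 1.92, -1.56 and -1.802 at 3 h and 0.83, -0.12 and 0.045 at 10 h on probe 12054 and 0.34, 0.86, -0.82 and -0.28 at 3 h and -0.041, 0.028 and -0.16 at 10 h on probe 6862. At 10 h both subunits had arrays above and below 0, and the means of the probes for Atp5a1 had opposite signs at each time. Atp5c1, the rotating gamma subunit, gave -0.72, 0.47, -0.78 and 0.050 at 3 h and 0.41, -1.84 and 0.97 at 10 h, and Atp5d, in the foot of the rotor, gave 0.74, 0.78, -0.28 and 0.77 at 3 h and -0.056, 0.12 and -0.040 at 10 h. Atp5d was close to 0 at 10 h, and at 3 h replicate 3 stood apart from the other arrays, which were between 0.74 and 0.78.

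**Figure D3:**
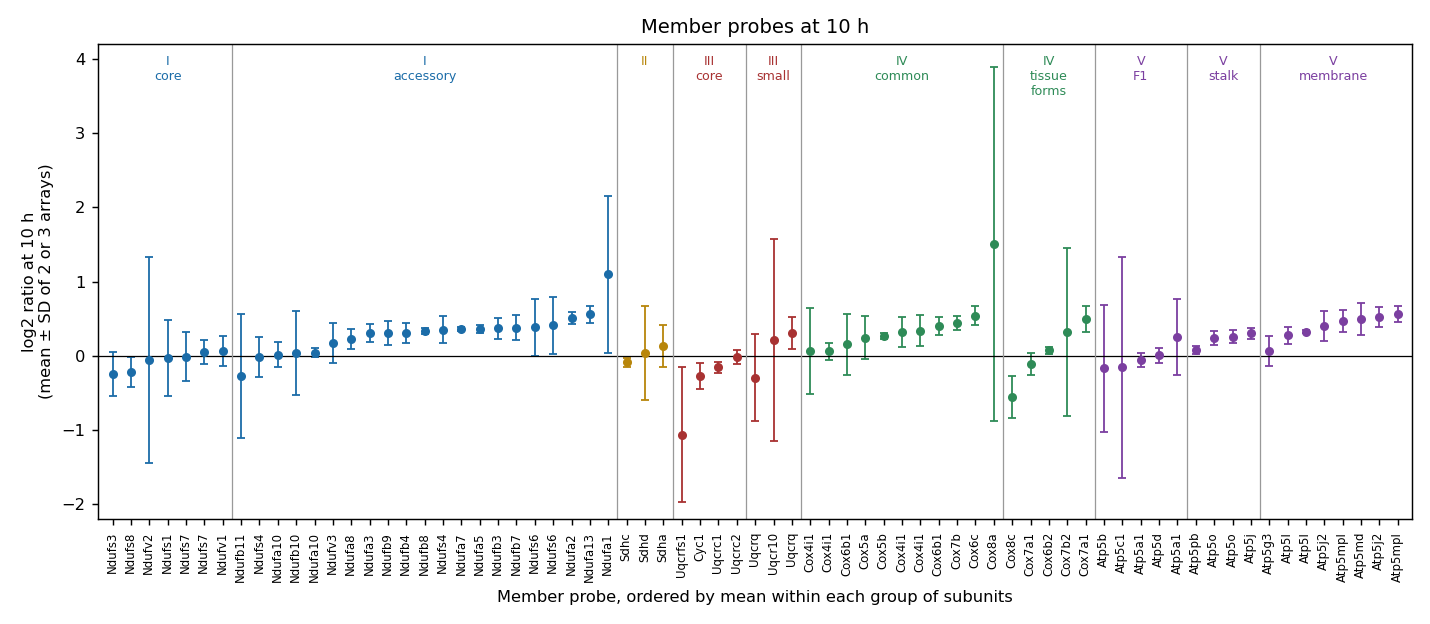
Mean log2 ratio of each member probe at 10 h with its SD over 2 or 3 arrays, ordered within each group of subunits and coloured by complex. Most probes of the accessory, common, stalk and membrane groups lie between 0.2 and 0.6 with short bars, and the core, F1 and complex II probes lie around or below 0.

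Across complexes, 0 of the 18 core, F1 and complex II probes with 3 values were above 0 on all 3 arrays at 10 h, and 34 of the 47 others were, against 15.6% of all probes. The order of these counts turned round when read as Cy5 over Cy3, with 4 of 18 (22.2%) and 3 of 47 (6.38%), against 15.5%. The medians relative to the array kept their order in that reading, at -0.037 ± 0.115 and 0.095 ± 0.361 (SD, n = 3), within their spread. Read as treated over non-treated, and relative to the array's median, the first group stood at -0.041, -0.15 and -0.079 and the second at 0.23, 0.37 and 0.32. At 3 h the means were 0.021 ± 0.30 and -0.074 ± 0.10 (SD, n = 4). Because this split was made with the values in view it carries no test and supports nothing by itself.

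Comparing the times, the 10 h mean was above the 3 h mean for 53 of 71 member probes (74.6%), against 59.2% of all probes, and every value at 10 h was above every value at 3 h for 24 (33.8%), against 9.87%. These 24 comprised 9 of complex I, 1 of complex III, 6 of complex IV and 8 of complex V, and 0 of the 19 core, F1 and complex II probes. The reverse held for 2 (2.82%, against 4.72%), Ndufs3 and Cox8c. Below 0 on every array with a value at 3 h and above 0 on every one at 10 h were 9 probes (12.7%, against 3.07%), for Ndufb3, Ndufb4, Ndufb8, Ndufs6, Cox5a, Cox6b2, Cox7b, Atp5j2 and Atp5md. With 1 array left out at a time, 24 to 29 of 71 member probes had every 10 h value above every 3 h value. The share over all probes was then 13.5% to 16.9%. Leaving out an array can only keep or raise such a count, so this range cannot show how far the main count rests on 1 array. A probe with a missing value separates more easily, among members and other probes alike. The part of the members' smaller SD in these shares was not tested.

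**Figure D4:**
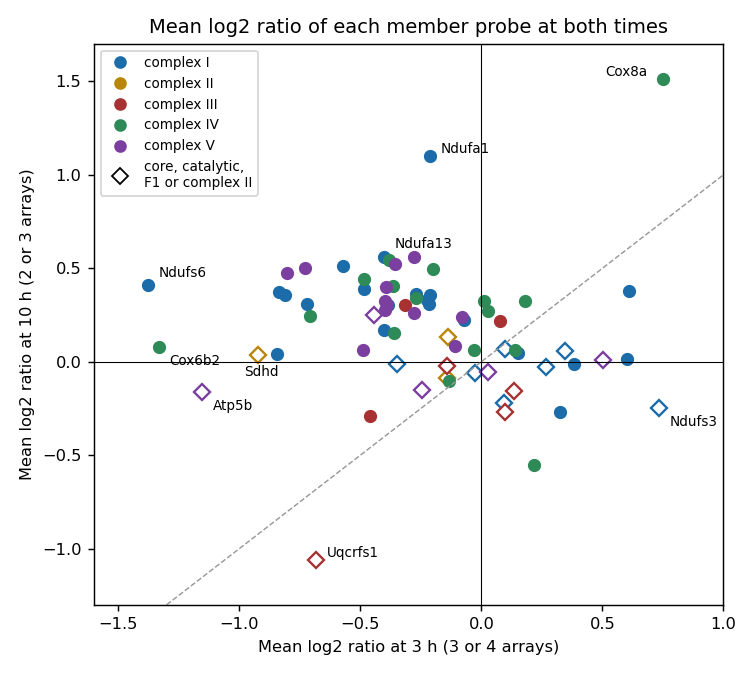
Mean log2 ratio of each member probe at 10 h against that at 3 h, coloured by complex, with open diamonds for core, catalytic, F1 and complex II probes and a dashed line of equality. Most filled points lie in the upper left, below 0 at 3 h and above 0 at 10 h, and most open diamonds lie within 0.5 of 0 on both axes, with Uqcrfs1, Atp5b, Atp5d, Sdhd and Ndufs3 farther out.

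Genes with several tested probes gave a check on single probes. Of 13 such genes, 4 had probes of differing sign at 3 h (Atp5a1, Cox4i1, Ndufs4 and Ndufs7) and 5 at 10 h (Atp5a1, Cox7a1, Ndufs4, Ndufs7 and Uqcrq). Atp5j2, Atp5l, Atp5mpl, Atp5o, Cox6b1 and Ndufs6 had means below 0 at 3 h and above 0 at 10 h on each of their tested probes. The same counts were not made over all genes with several probes. Over all probes, 38.9% had a 3 h mean above 0 and 47.6% a 10 h mean above 0. Single arrays did not all follow the means of these genes. Symbols were those of the platform annotation, and whether a probe also binds a processed pseudogene, of which several of these families have many, cannot be seen here.

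Read as Cy5 over Cy3, the pattern at 10 h was largely absent, and the order of core and other subunits was turned round in the counts. The members' median relative to all probes was then 0.073 ± 0.29 (SD, n = 3), the number above 0 on all 3 arrays was 7 of 65, against 15.5% of all probes, and the number with separate times was 1, against 3.3%. The 2 readings differ at 10 h only in the sign of replicate 3. On the Cy5 arrays alone, which are the same in both readings, 42 of 67 member probes with both values (62.7%) were above 0 on both, against 30.3% of all probes, and 11 (16.4%) below 0 on both, against 26.5%. Reversing every array would turn every sign given here.

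The other genes that serve the chain lay closer to 0 at 10 h. The median 10 h mean was 0.019 over 20 probes for 17 assembly factors, 0.052 over 12 probes for 10 enzymes of the tricarboxylic acid cycle, 0.030 over 11 probes for 9 genes of cytochrome c, coenzyme Q synthesis and carriers, and 0.084 over 9 probes for 7 regulators of mitochondrial gene expression, beside 0.24 over the members and -0.016 over all probes. Above 0 on all 3 arrays were 2 of 18, 2 of 10, 1 of 9 and 1 of 7 probes, against 15.6% of all probes. At 3 h their medians were -0.34, -0.058, -0.10 and -0.10, beside -0.25 over the members and -0.15 over all probes. The 10 h mean was above the 3 h mean for 15 of 20 assembly factor probes (75.0%, beside 74.6% of members and 59.2% of all probes), and for 5 of 20 (25.0%, against 9.87%) every 10 h value was above every 3 h value. In the other 3 lists 9 of 12, 6 of 11 and 6 of 9 were higher at 10 h, and 1 probe of each list had separate times. None of these genes passed in limma in any comparison. Of the fibroblast markers 20 probes for 9 genes had medians of 0.22 at 3 h and -0.12 at 10 h, and their part in the members' values was not tested.

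Promoters of member genes are shown because many members shared a direction at 10 h when read as treated over non-treated. Of 56 genes, 44 had an entry in the RefSeq promoter table of build GRCm38.p6, with 49 promoters of 250 bases before the start and 50 after it. The sequences below hold 250 bases before the start and 30 after it. Ndufa13 (0.425) in complex I and Atp5md (0.345) in complex V were chosen for a high minimum over their tested probes and 10 h arrays. Ndufa2 had 0.425 too and is not shown. Atp5j (0.222) was added for a YY1 match and is shown by 1 of its 2 promoters. By the same measure Ndufb8 (0.305) and Atp5j2 (0.238), which also had a YY1 match, were higher and are not shown. Genes with matches past the window were passed over. Capitals mark matches on either strand to GGGCGG (Sp1), CCGGAAG (ETS or GABP) and AAGATGGC (YY1).
Ndufa13, chr8:69901991-69902270, minus strand: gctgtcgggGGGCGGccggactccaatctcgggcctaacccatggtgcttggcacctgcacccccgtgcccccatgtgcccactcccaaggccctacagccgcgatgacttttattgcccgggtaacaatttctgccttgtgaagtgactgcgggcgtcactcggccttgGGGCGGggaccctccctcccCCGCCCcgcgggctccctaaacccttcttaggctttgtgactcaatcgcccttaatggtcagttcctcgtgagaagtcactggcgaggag
Atp5md, chr19:47090618-47090897, minus strand: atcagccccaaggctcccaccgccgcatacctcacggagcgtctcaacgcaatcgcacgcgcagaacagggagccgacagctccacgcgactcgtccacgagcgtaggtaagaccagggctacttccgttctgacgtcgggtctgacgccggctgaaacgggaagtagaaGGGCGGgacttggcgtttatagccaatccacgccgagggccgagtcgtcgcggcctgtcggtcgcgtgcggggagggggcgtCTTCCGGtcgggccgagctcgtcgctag
Atp5j, chr16:84834947-84835226, minus strand: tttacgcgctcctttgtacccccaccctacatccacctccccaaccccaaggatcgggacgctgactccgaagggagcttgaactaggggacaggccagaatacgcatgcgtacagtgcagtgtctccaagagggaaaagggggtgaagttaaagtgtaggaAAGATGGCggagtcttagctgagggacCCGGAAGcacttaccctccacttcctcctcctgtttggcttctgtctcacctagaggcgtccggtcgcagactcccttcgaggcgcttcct

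The window of Ndufa13 holds the Sp1 letters at bases 10, 171 and 191, that of Atp5md holds Sp1 at 171 and ETS or GABP at 253, and that of Atp5j holds YY1 at 163 and ETS or GABP at 190, counted from 1 at the left end. Of the 49 member promoters of full length, 8 (16.3%) held the YY1 letters, against 2.75% of all 32851 promoters and 4.28% of the 6920 promoters of genes tested on the array. The ETS or GABP letters were in 9 (18.4%, against 8.86% and 15.9%), the Sp1 letters in 20 (40.8%, against 35.7% and 59.5%) and the NRF1 motif in 1, of Uqcrc1 (2.04%, against 0.971% and 1.73%). Matches to different motifs overlapped in 1 promoter, between ETS or GABP and Sp1. Genes with the YY1 letters were Atp5j, Atp5j2, Atp5pb, Ndufa3, Ndufb8, Ndufs6, Ndufs4 and the core gene Ndufs7. By complex these letters were in 5 of 23 promoters of complex I and 3 of 13 of complex V. In complexes II, III and IV they were in 0 of 2, 0 of 3 and 0 of 8. A link between these letters and the direction at 10 h was not tested. A match is a description of the letters and not a site of binding.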

How the data were processed

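The deposited table holds log2 ratios of the channels of 7 two-colour arrays, with base, direction and normalization not stated per the labels. Steps at small whole-number ratios gave base 2; the direction is an assumption. The cDNA was dyed indirectly, per the labels' protocols. For scanner and background steps the sources used here give nothing. Each array's repeated extreme value (size over 15) was set missing, and no centring was added. Probes with 3 or more values at 3 h and 2 or more at 10 h entered a limma fit (lmFit and eBayes, version 3.58.1, R 4.3.3) with a mean per time and a dye term over all 7 arrays, two-sided, adjusted over all 11559 probes at a threshold of 0.05. Each ratio holds both channels, so the spread of the non-treated cells was not estimated apart from that of the treated cells. The fit was tested on simulated data. Of 20355 probes, 14030 had 1 symbol, 5 several and 6320 none.

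Deviations of same-numbered arrays of the 2 times correlated at 0.028, 0.031 and 0.091 over 6369 probes. Those of differently numbered arrays ran from -0.071 to 0.048. Replicate 3 had the treated sample in Cy3 at both times, so pairing and dye cannot be told apart there. The main fit had no replicate block. Members, lists and roles were chosen with earlier results of these data known. Named probes were those of complex II, textbook core and isoform subunits and, per other complex, the 3 smallest p-values in each comparison, with further probes where those of 1 gene disagreed or closed a range. Lists and medians carry no test. Sequences are from RefSeq.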

Additional observations from a re-analysis of the deposited data

Results flagged for a closer look

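Complex II stood at -0.507 relative to the median of its array on replicate 1 at 3 h, apart from the other 3 arrays, which lay between -0.097 and -0.06. Cyc1 had 2.187 on replicate 2 at 3 h, with its other arrays between -0.84 and -0.48, and Atp5d had -0.277 on replicate 3, with its other arrays between 0.736 and 0.782. Among 36 named probes with 4 values at 3 h, those for Cyc1 and Atp5d were the 2 that stood apart. Chance gives about 1 in 20, which is near that share.

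Among all 71 member probes, 9 (12.7%) were below 0 on every array with a value at 3 h and above 0 on every array at 10 h, against 3.07% of all probes, and 0 of the 9 were core, F1 or complex II probes. The 10 h mean less the 3 h mean was 1.208 for Ndufb3, 1.029 for Ndufb4, 0.557 for Ndufb8, 0.874 for Ndufs6 (probe 15918), 0.954 for Cox5a, 1.412 for Cox6b2, 0.926 for Cox7b, 0.798 for Atp5j2 (probe 10282) and 1.229 for Atp5md. The difference itself was tested in limma and did not pass for these 9 probes, with adjusted p = 0.581 for Ndufb3, Ndufb4, Cox7b and Atp5md, 0.614 for Atp5j2, 0.637 for Cox6b2, 0.642 for Ndufs6, 0.646 for Cox5a and 0.671 for Ndufb8. Read as Cy5 over Cy3, the arrays of opposite dye within a time had opposite signs for these probes.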

How the results depend on the processing

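Over 18 other settings the count of probes called in limma moved only at 3 h, to 6 with the extreme values kept and to 35 without values at small whole-number ratios, with 0 members among the 35; the replicate number as a block called 0 of 10609 probes in the difference. The members' fitted median less that of all probes at 10 h was above 0 in 17 of 17 settings, and of 306 medians recomputed 253 stayed within the spread between arrays and 18 took the opposite sign to the main value. Read as Cy5 over Cy3 it was 0.075 for all members, 0.087 for complex I and 0.094 for complex V at 10 h, and 0.010, 0.105 and 0.124 in the difference, with 0.015 for complex IV, while members above 0 on every 10 h array numbered 7 and those with separate times 1. At 10 h, keeping extreme values gave 0.274 for all members, -0.020 for complex III and 0.278 for complex V; no dye term 0.282, -0.139 and 0.277 for complexes I, III and V; each time fitted alone 0.320, -0.150 and 0.272; and arrays scaled to equal spread 0.352, -0.126 and 0.365, with 0.327 for all members. Only probes with 7 values gave 0.118, -0.194 and 0.260 for complexes II, III and V, with -0.341 for complex II at 3 h and 0.450 in the difference. Gene means gave -0.024 for complex III. Without small whole-number ratios complexes I and III were at 0.288 and 0.022, and complexes III and V at -0.041 and 0.289 in the difference. Complex III in the difference was -0.029 without the dye term and -0.036 with the replicate block, which changed no other call, while its median relative to each array averaged -0.144 at 3 h and -0.131 at 10 h. The cause of these moves was not tested.

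Leaving out 1 array at a time gave -0.183 to 0.040 for all members and -0.189 to 0.177 for complex I at 3 h. At 10 h the ranges were 0.212 to 0.288 for all members, 0.181 to 0.327 for complex I, -0.002 to 0.238 for complex II, -0.122 to 0.096 for complex III and 0.212 to 0.327 for complex V. In the difference they were 0.162 to 0.381, 0.110 to 0.404, -0.388 to -0.054 and 0.461 to 0.698 for all members and complexes I, III and V. The number of arrays and the assumed direction limit every value.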
